A study of Mus musculus with 6 samples.

Results

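The genes described here are 35 components of the unfolded protein response of the endoplasmic reticulum (ER) in mouse CD8+ T cells. They were chosen by name, as sensors, targets of the transcription factor XBP1, folding factors, translocation factors and factors of ER-associated degradation, not by a threshold on their values. The choice was made with earlier results of these data known, so counts and shares of the list are descriptions. Of the array's 35784 probes with a gene symbol, 59 carried 1 of these 35 names, out of 21946 gene names in all. The array held at least 1 probe for each of the 35 genes. For 32 of them a probe lay above the detection limit, and did so on all 6 arrays; the probes of Canx, Derl1 and Derl3 were above it on at most 1 array, so these 3 genes were not tested.

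CD8+ T cells were taken from spleens of 6-week-old C57BL/6 mice, and their total RNA was hybridised to 6 Illumina bead arrays, 2 for each of 3 pre-treatments. These were E9 at 1.0 µM, a compound known here by its code name and labelled as a proteasome activator, epoxomicin at 0.5 µM, which inhibits the proteasome, and the vehicle DMSO. After pre-treatment, every group spent 3 days in culture with IL-2 on immobilized anti-CD3 and anti-CD28 (5 µg/ml), so all values are from activated cells and from a single time. The cells are described as CD8+CD44+ and the duplicates as biological, but nothing ties arrays to animals or days, so p-values measure the spread between these arrays, which may be partly technical.

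The ER folds secreted and membrane proteins. When unfolded proteins build up there, the sensors IRE1 (gene Ern1), PERK (Eif2ak3) and ATF6 (Atf6) raise chaperones, disulfide isomerases and the machinery that sends misfolded proteins to the proteasome. IRE1 cuts the Xbp1 mRNA into the form that encodes the active transcription factor, PERK slows translation and favours ATF4, and ATF6 is freed by proteases of the Golgi apparatus, one of which is encoded by Mbtps1. In activated T cells, whose ER expands as cytokine and granule proteins are made, the IRE1 and XBP1 branch is known to be engaged during effector differentiation.

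Many genes of this response carry the ER stress response element in their promoters, to which ATF6 and XBP1 bind. It was searched for on both strands in windows of 300 bases (250 before and 50 after the annotated start, RefSeq, GRCm38.p6), as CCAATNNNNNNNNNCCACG (ERSE), as its short form ATTGGNCCACG (ERSE-II) and as the core TGACGTG of the UPR element. A window was given for 30 of the 35 genes, all but Sec61a1, Hyou1, Derl1, Atf6 and Manf. ERSE was found in 9 of the 30 (30.0%), against 0.137% of the 27025 genes with a window, and ERSE-II in 2 (6.67%), against 0.0444%. The UPR element core was found in 2 (6.67%), against 2.22% of all genes. Carrying these elements is part of why some of these genes are known as targets, so the shares describe the list and test nothing. No match overlapped a match of another element.

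Printed first is the whole window of Hspa5, which encodes BiP, the main chaperone of the ER, with its UPR element core and its ERSE in capitals:
Hspa5, chr2:34771840-34772139, plus strand: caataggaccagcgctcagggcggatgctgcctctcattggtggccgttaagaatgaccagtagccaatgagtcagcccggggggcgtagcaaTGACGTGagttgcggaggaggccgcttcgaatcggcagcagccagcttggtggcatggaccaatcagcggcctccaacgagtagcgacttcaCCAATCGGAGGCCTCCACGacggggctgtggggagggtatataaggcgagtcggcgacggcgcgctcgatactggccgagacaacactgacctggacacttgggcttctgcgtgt

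Of the 10 genes that rose with E9 against DMSO, 4 held an element in their window. The matches with 20 bases on each side are shown, with the element in capitals; the Creld2 element lies on the opposite strand to the gene and therefore reads in reverse:
Creld2, chr15:88819500-88819558, plus strand: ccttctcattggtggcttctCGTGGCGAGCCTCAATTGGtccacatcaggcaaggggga
Dnajc3, chr14:118937807-118937865, plus strand: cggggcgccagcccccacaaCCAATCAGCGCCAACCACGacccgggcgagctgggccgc
Dnajb11, chr16:22857832-22857882, plus strand: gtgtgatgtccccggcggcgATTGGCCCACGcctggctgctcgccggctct
Herpud1, chr8:94386357-94386407, plus strand: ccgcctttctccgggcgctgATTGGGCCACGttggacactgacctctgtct

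Xbp1, which had the largest fold change of the 32 measured genes with E9 against DMSO, had none of these 3 strings in its window, which is printed whole:
Xbp1, chr11:5520391-5520690, plus strand: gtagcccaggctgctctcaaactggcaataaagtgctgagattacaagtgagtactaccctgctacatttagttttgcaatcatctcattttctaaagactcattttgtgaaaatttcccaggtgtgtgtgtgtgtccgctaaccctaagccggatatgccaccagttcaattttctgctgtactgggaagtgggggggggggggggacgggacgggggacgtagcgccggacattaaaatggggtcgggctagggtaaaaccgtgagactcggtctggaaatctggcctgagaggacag

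**Figure D1:**
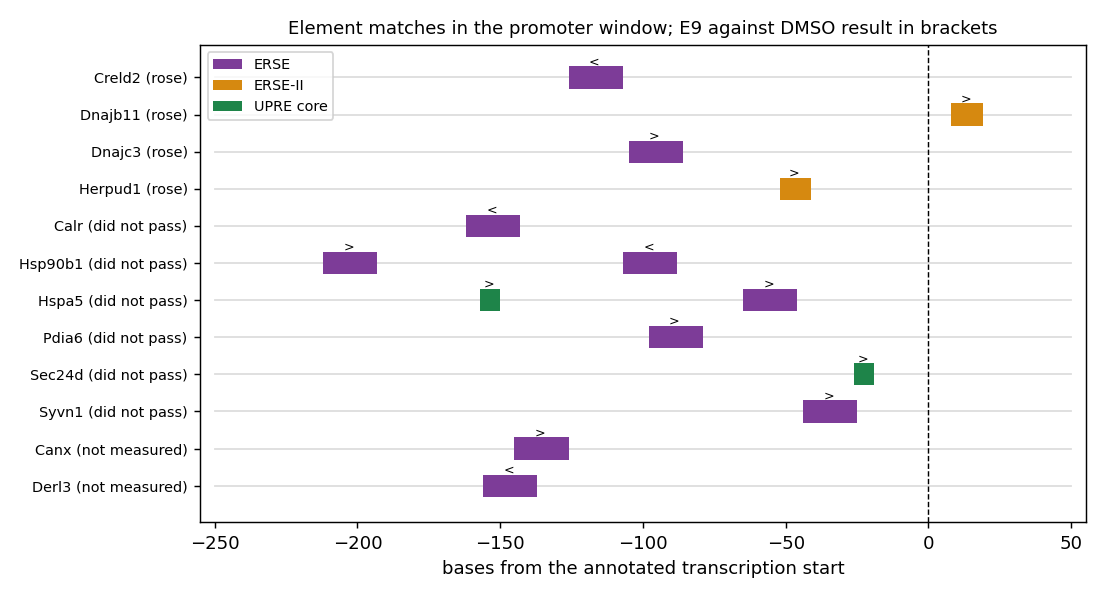
Matches of the 3 elements in the promoter windows of the 12 genes that held one, by distance in bases from the annotated start (dashed line); arrowheads give the strand relative to the gene. Genes that rose with E9 stand first, then measured genes that did not pass, then genes not measured; matches lay between positions -212 and 18 relative to the start.

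Intensities are given as the authors deposited them, on a linear scale on which every array has the same distribution, from 22 to 18026.1 with a median of 34.2. The detection limit was 34.6. Fold changes are on the log2 scale after background correction with an offset of 50, which shrinks the changes of dim probes; each has the standard error (SE) of a limma model over all 13524 tested genes and a p-value adjusted over them (Benjamini-Hochberg), and a gene is said to have risen, fallen or passed if its adjusted p was under 0.05. Levels of different genes come from different probes and are not compared. In these bulk samples, more cells that hold a transcript and more of it per cell cannot be told apart.

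The arrays of a group correlated with r from 0.996 to 0.998 across genes, which are not independent replicates. Of the markers of the labelled cells, Cd8b1 ran from 4752.9 to 7588.1 and Cd3e from 1601.7 to 2127.4, while the Cd8a probe, at 36.5 to 48.5, lay close to the detection limit. The summed intensity of 6 CD8 T cell markers was 17928.5 and 18345.9 with E9, 13177.4 and 13202.5 with epoxomicin and 11492.9 and 11978.8 with DMSO. With E9 5 of the 6 rose against DMSO, and the part of that shift in the results on ER stress genes was not tested. NK cell markers (2 measured) summed to 2037.2 and 2011.2 with E9, 2550.6 and 2878.3 with epoxomicin and 2103.9 and 2194.7 with DMSO, and myeloid markers (3 measured) to 104.4 to 129.7 over all arrays; none of these 5 passed against DMSO. Of the CD4 and regulatory T cell markers (2 measured, sums of 309.3 and 283.8 with E9, 346.6 and 353.1 with epoxomicin and 350 and 342.9 with DMSO), Foxp3 fell with E9 against DMSO (-0.24, adjusted p = 0.0422) and against epoxomicin (-0.25, adjusted p = 0.0449), and its part in the results was not tested either.

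The first comparison asks how the ER stress genes stood after pre-treatment with the proteasome activator. With E9, 10 of the 32 measured genes rose (31.2%) and 0 fell. Of all 13524 genes, 7.52% rose and 7.61% fell, 15.1% in all. Many of these are dimmer than the 32. In a fit of only the 9836 genes above the detection limit on all 6 arrays, 952 rose and 969 fell, and again 10 of the 32 rose. The median of the 32 log2 fold changes was 0.17, against -0.0058 over all genes, with 27 above 0 and 5 below. Both E9 arrays lay above both DMSO arrays for 18 of the 32 genes, against 24.7% of all genes, and below them for 3, against 26.7% (51.4% of all genes did one or the other). The genes that rose were the transcription factor gene Xbp1, the sensor gene Ern1, 4 chaperone and co-chaperone genes, 1 disulfide isomerase gene and 3 genes of ER-associated degradation.

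Xbp1 had intensities of 2908.1 and 2654.9 with E9, 1315.8 and 1204.4 with epoxomicin, and 1285.5 and 1254 with DMSO. The E9 arrays stood alone, about level with each other and far above the other 4, whose epoxomicin and DMSO values overlapped. Xbp1 averaged 2781.5 ± 179 with E9 and 1269.75 ± 22.3 with DMSO (SD, n = 2 each). The ratio of these means was 2.19, and the log2 fold change was 1.11 ± 0.074 (SE, 2 arrays per group), adjusted p = 1.03e-05. The Xbp1 value is the total transcript, and its splicing by IRE1 was not measured.

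Xbp1 is also a factor of plasma cells, so their markers are given beside it. In a list for B cells and plasma cells, 0 of the 11 measured genes rose with E9 and 2 fell (Cd79b and H2-Ab1), with sums of 721.1 and 838.5 with E9, against 786.2 and 853.5 with DMSO. Igk-C, an immunoglobulin gene, had 241.6 and 377.7 with E9, 49.1 and 48.1 with epoxomicin and 199.1 and 229 with DMSO (E9 against DMSO 0.46 ± 0.16, adjusted p = 0.0862). The plasma cell markers Jchain, Sdc1 and Mzb1 lay between 29.2 and 39.9 on all arrays, around the detection limit, and Tnfrsf17 was not above it on 2 arrays. With epoxomicin 5 of the 11 fell, with sums of 490.7 and 456.3. The part of B cells and plasma cells in the Xbp1 values was not tested.

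Of the 5 sensors and regulators, Xbp1 and Ern1 rose. Ern1, which encodes the endonuclease sensor IRE1, had 68.2 and 70.6 with E9, 62.4 and 52.6 with epoxomicin and 51.5 and 45.8 with DMSO. With E9 both arrays were above all others, and Ern1 rose (log2 fold change 0.36 ± 0.077, adjusted p = 0.0124). The call rests on this 1 dim probe, since its other probes were above the detection limit on at most 1 array and were not tested. Atf6 had 49.7 and 47.6 with E9, 41.2 and 38.1 with epoxomicin and 44.8 and 38.5 with DMSO. The E9 arrays were the highest for Atf6 too, but the difference from DMSO did not pass (0.14 ± 0.071, adjusted p = 0.239, 95% interval -0.015 to 0.30), and its other probe, close to the detection limit, gave -0.054. Eif2ak3, the PERK gene, had 43.6 and 43.8 with E9, 40.2 and 44.4 with epoxomicin and 39.9 and 42.1 with DMSO, all close to the detection limit. Its difference from DMSO did not pass (0.057 ± 0.065, adjusted p = 0.668, interval -0.089 to 0.20). Mbtps1, the protease gene, gave 0.17 ± 0.094 (adjusted p = 0.31) with the probe used, and -0.031 when its 5 probes were averaged.

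Among chaperones, 4 of the 10 measured genes rose and the other 6 did not pass (median log2 fold change 0.20). Dnajc3 encodes P58IPK, a co-chaperone of BiP and inhibitor of PERK. It had 258.1 and 234.3 with E9, 219.6 and 196.9 with epoxomicin and 166.3 and 163 with DMSO. The 3 groups did not overlap, in the order E9, epoxomicin, DMSO, and the gene rose with E9 (0.51 ± 0.075, adjusted p = 0.00138). Its other probe was not above the detection limit on any array.

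Creld2, whose protein is a secreted ER stress factor, had 847.5 and 759.5 with E9, 685 and 660.4 with epoxomicin and 609.7 and 593.1 with DMSO. It showed the same order without overlap, and rose with E9 (0.40 ± 0.072, adjusted p = 0.00447); a second probe rose as well (0.36 ± 0.068, adjusted p = 0.00696 over the 20349 probes). Dnajb11, encoding the BiP co-chaperone ERdj3, had 2409.8 and 2147.9 with E9, 2088.4 and 2123.4 with epoxomicin and 1875 and 1706.4 with DMSO. Its groups did not overlap either, but the lower E9 array (2147.9) lay just above the higher epoxomicin array (2123.4). Dnajb11 rose with E9 against DMSO (0.34 ± 0.078, adjusted p = 0.0158). For Dnajc3, Creld2 and Dnajb11 the difference between epoxomicin and DMSO did not pass, and the share of all genes in this order was not counted. Dnajb9, encoding ERdj4, which holds IRE1 inactive through BiP, had 270.6 and 284 with E9, 272.4 and 231.8 with epoxomicin and 215.8 and 223.3 with DMSO. One epoxomicin array reached the E9 level; Dnajb9 rose with E9 (0.30 ± 0.080, adjusted p = 0.0304), while its second probe did not pass (0.23 ± 0.076, adjusted p = 0.0868).

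Hspa5 did not pass. Its intensities were 556.9 and 868.5 with E9, 655 and 586 with epoxomicin and 629.2 and 611.8 with DMSO. The lowest and the highest of the 6 values were both E9 arrays, and the log2 fold change of E9 against DMSO was 0.16 ± 0.16 (adjusted p = 0.618, interval -0.20 to 0.52). Without the second E9 array it was -0.15, and without the first it was 0.47. The 2 E9 arrays thus lay on opposite sides of DMSO. The remaining chaperone genes gave 0.22 for Hyou1, 0.17 for Hsp90b1, 0.088 for Calr, 0.082 for Manf and 0.038 for Sdf2l1, with SE from 0.073 to 0.11 and adjusted p from 0.131 to 0.825. Hyou1 encodes a nucleotide exchange factor of BiP, Hsp90b1 the chaperone GRP94, Calr the lectin chaperone calreticulin, Manf a secreted factor that binds BiP and Sdf2l1 a partner of Dnajb11.

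**Figure D2:**
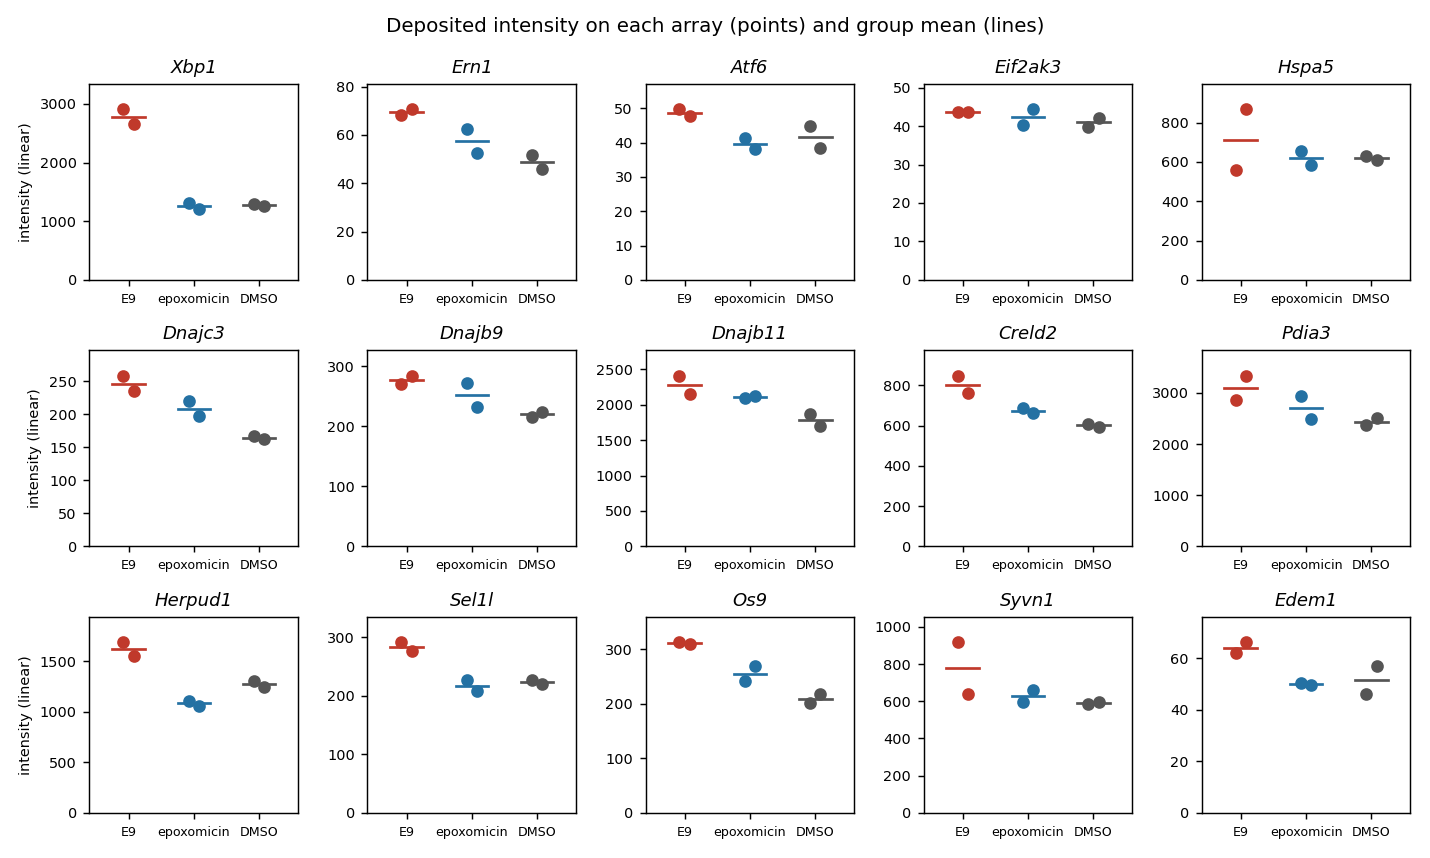
Deposited intensity (linear scale, axis from 0) of 15 genes on each of the 2 arrays per group (points) with the group mean (line), E9 in red, epoxomicin in blue and DMSO in grey. Xbp1 stands apart in E9 at 2908.1 and 2654.9, Dnajc3 and Creld2 are ordered E9, epoxomicin, DMSO, and the E9 arrays of Hspa5 and Syvn1 lie far from each other.

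Of the 5 disulfide isomerase genes, whose proteins form and reshuffle disulfide bonds, 1 rose (median log2 fold change 0.078). This was Pdia3, encoding the partner of the lectin chaperones, which had 2871.6 and 3337.7 with E9, 2932.7 and 2488.3 with epoxomicin and 2379.2 and 2505 with DMSO. The E9 arrays were above the DMSO arrays and overlapped those of epoxomicin (E9 against DMSO 0.34 ± 0.097, adjusted p = 0.044). Pdia4 had 315.2 and 220.2 with E9 and 190.3 and 241.6 with DMSO, groups that overlap (0.27 ± 0.14, adjusted p = 0.287). Leaving out 1 array at a time gave 0.033 to 0.50 for Pdia4. P4hb, encoding the founding disulfide isomerase, had 3505.4 and 2896.1 with E9 and 3479.7 and 3677.7 with DMSO (-0.17 ± 0.093, adjusted p = 0.31). With 1 array left out its fold change ran from -0.30 to -0.029. Pdia6 gave 0.078 and Pdia5 -0.098, neither past the threshold.

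In ER-associated degradation 3 of the 6 measured genes rose (median log2 fold change 0.33). Os9 encodes the lectin that delivers misfolded glycoproteins to the membrane ligase. It had 312.4 and 309.9 with E9, 241.1 and 268.2 with epoxomicin and 200.5 and 218.2 with DMSO. As for Dnajc3, the 3 groups did not overlap and DMSO was lowest; E9 was above DMSO by 0.52 ± 0.073 (adjusted p = 0.00109).

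Herpud1, a scaffold of the ligase complex, had 1685.6 and 1545.9 with E9, 1109.2 and 1053.5 with epoxomicin and 1299.5 and 1241.8 with DMSO. E9 was highest and epoxomicin lowest, with no overlap between any 2 groups. It rose with E9 against DMSO (0.34 ± 0.071, adjusted p = 0.0102), and so did its second probe (0.33 ± 0.065, adjusted p = 0.00808 over the probes). Sel1l, the adaptor of the ligase, had 291.8 and 276 with E9, 226.4 and 208.8 with epoxomicin and 227.1 and 219.7 with DMSO. Epoxomicin and DMSO overlapped and both E9 arrays were above them (E9 against DMSO 0.31 ± 0.068, adjusted p = 0.0127); a second bright probe gave 0.12 and did not pass.

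Syvn1, the ligase HRD1 itself, had 917.6 and 639.8 with E9, 597.6 and 661.4 with epoxomicin and 584.5 and 596.5 with DMSO. One E9 array stood far above the rest, and the difference from DMSO (0.36 ± 0.14) did not pass (adjusted p = 0.115). This difference ran from 0.11 to 0.61 on leaving out 1 array. Edem1, a mannosidase-like factor that marks glycoproteins for removal, had 62.2 and 66.3 with E9, 50.3 and 49.6 with epoxomicin and 46 and 56.9 with DMSO. E9 against DMSO gave 0.22 ± 0.078 (adjusted p = 0.0932), and 0.12 to 0.33 on leaving out 1 array. Derl2, a channel component, gave 0.091.

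None of the 6 measured genes of translocation and transport passed against DMSO (median log2 fold change 0.016). Sec24d, a subunit of the coat of vesicles that leave the ER, had 56.1 and 53.1 with E9, 43.1 and 41.2 with epoxomicin and 42.9 and 45.3 with DMSO. Both E9 arrays were above the other 4, with a fold change of 0.20 ± 0.064 against DMSO just outside the threshold (adjusted p = 0.0646); it passed in 5 of the alternative settings (adjusted p from 0.0364 to 0.0481). The translocon genes Sec61a1 and Sec61b gave 0.054 and -0.02, the signal peptidase gene Spcs2 0.051, and the translocon-associated genes Ssr1 and Ssr3 -0.18 and -0.10, with adjusted p from 0.157 to 0.912.

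The size of these calls depended on single arrays. Without the second DMSO array 5 of the 32 genes passed, and without the first DMSO array 7. Xbp1, Dnajc3, Os9 and Creld2 passed in each of the 8 alternative settings and in each fit without 1 array. Ern1 failed only without the second DMSO array. Herpud1 and Dnajb11 failed without the first E9 array, without the second DMSO array and with an offset of 16. Sel1l failed when its probes were averaged (0.12, adjusted p = 0.254), without the first E9 array and without either DMSO array. Dnajb9 and Pdia3 failed with the replicate number as a block, with an offset of 16, and without the second E9 array or either DMSO array. Dnajb9 also failed without the first E9 array, and Pdia3 with no filter on dim probes. In no fit did any of the 10 change sign.

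**Figure D3:**
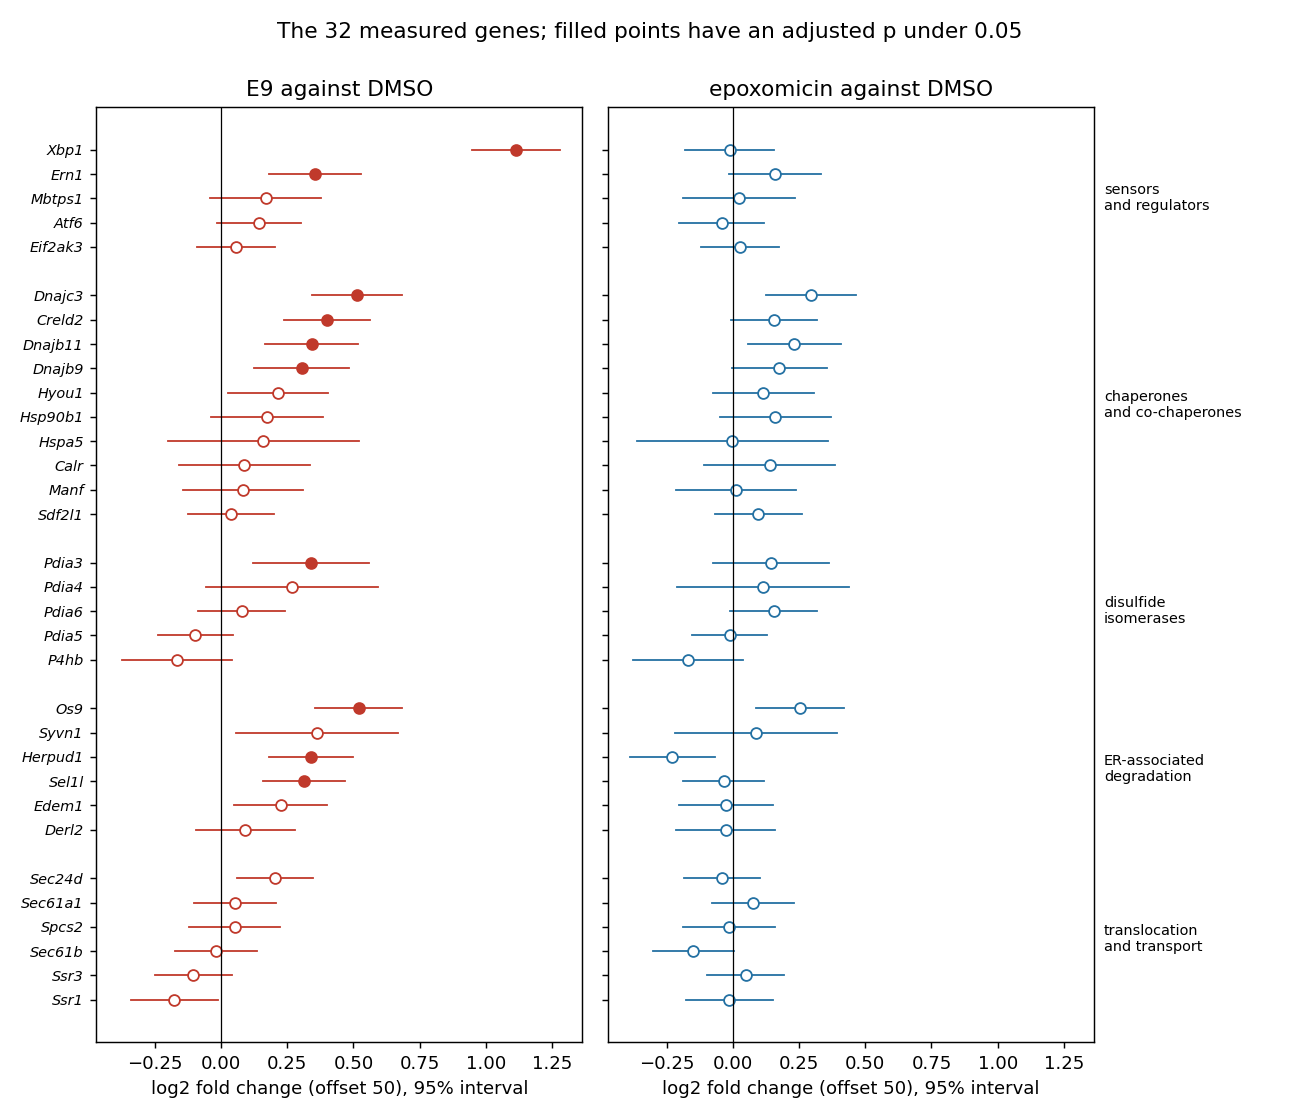
Log2 fold change of the 32 measured genes with its 95% interval, by role, for E9 against DMSO (left) and epoxomicin against DMSO (right); filled points passed the threshold. On the left 10 genes are filled, from Dnajb9 at 0.30 to Xbp1 at 1.11, and on the right none is; both panels share the DMSO arrays.

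The next comparison asks the same of the proteasome inhibitor. With epoxomicin, 0 of the 32 genes passed in the limma fit, where 1.26% of all 13524 genes did (0.71% higher, 0.547% lower); at an unadjusted p under 0.05 there were 4, against 11.2% of all genes, and with trend and robust settings of the test again 0 passed after adjustment. The median fold change was 0.038, against 0.0021 over all genes. The 4 were Dnajc3 (0.30 ± 0.075, adjusted p = 0.124), Os9 (0.25 ± 0.073, adjusted p = 0.183) and Dnajb11 (0.23 ± 0.078, adjusted p = 0.27), with higher values, and Herpud1 (-0.23 ± 0.071, adjusted p = 0.223), with lower values. For each of these the epoxomicin and DMSO arrays did not overlap. These genes were picked by small p, so the lack of overlap largely follows from that choice and adds no support. Their share of the 32 was close to that of all genes, and none of them passed after adjustment. Among the 32, both epoxomicin arrays were above both DMSO arrays for 10 genes, against 21.2% of all genes, and below them for 3, against 20.3% (41.5% of all genes did one or the other).

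For Xbp1 the epoxomicin arrays lay around the DMSO arrays (-0.012 ± 0.074, adjusted p = 0.979), and the 95% interval, -0.18 to 0.15, does not reach the difference found with E9. For Hspa5 the mean intensity was 620.5 in both groups, with an interval of -0.36 to 0.36. The sensor genes gave 0.16 ± 0.077 for Ern1, -0.042 ± 0.071 for Atf6 and 0.027 ± 0.065 for Eif2ak3. Over the 32 genes the intervals reached from -0.39 at the lowest, for Herpud1, to 0.46 at the highest, for Dnajc3.

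E9 was also set directly against epoxomicin, at concentrations that differ. Here 5 of the 32 genes rose with E9 (15.6%) and 0 fell. Of all genes 6.62% rose and 6% fell, 12.6% in all. In the fit of the 9836 genes above the detection limit on all 6 arrays, 818 rose and 730 fell, and again 5 of the 32 rose. Both E9 arrays were above both epoxomicin arrays for 14 of the 32, against 23% of all genes, and below them for 3, against 27% (50.1% did one or the other). Xbp1 was higher with E9 by 1.13 ± 0.074 (adjusted p = 9.36e-06). Herpud1 followed with 0.57 ± 0.071 (adjusted p = 0.000583) and its second probe with 0.48 ± 0.065 (adjusted p = 0.00103 over the probes). The gap for Herpud1 joins values above DMSO with E9 to values below DMSO with epoxomicin. Sel1l (0.35 ± 0.068, adjusted p = 0.00881), Os9 (0.27 ± 0.073, adjusted p = 0.0431) and Sec24d (0.24 ± 0.064, adjusted p = 0.0351) were the others. Cell type markers moved in the same comparison. Of the 11 B cell and plasma cell markers 3 rose with E9 and 0 fell, namely Igk-C (2.14, adjusted p = 1.73e-05), Cd74 (0.65, adjusted p = 0.000441) and H2-Aa (0.42, adjusted p = 0.0108). The NK cell marker Nkg7 fell (-0.42, adjusted p = 0.00496). Of the 6 CD8 T cell markers 4 rose, Cd8b1 (0.62), Cd44 (0.60), Cd3g (0.49) and Cd3d (0.29), and 0 fell. The part of all these markers in the differences between E9 and epoxomicin was not tested.

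The chaperone genes that rose against DMSO did not pass here: Creld2 gave 0.25 ± 0.072 (adjusted p = 0.0551), Dnajc3 0.22 ± 0.075 (adjusted p = 0.102), Dnajb9 0.13 ± 0.080 and Dnajb11 0.11 ± 0.078. Their epoxomicin values lay between those of E9 and DMSO or overlapped with E9, and Creld2 passed when its probes were averaged (0.22, adjusted p = 0.0473). On leaving out 1 array Creld2 gave 0.17 to 0.32. With the replicate number as a block, or with the E9 and epoxomicin arrays alone in the fit, 3 of the 32 passed; Os9 and Sec24d failed in both and in every fit without 1 array. Without the second epoxomicin array 2 passed, Xbp1 and Herpud1, and without the first epoxomicin array, or without either one of the DMSO arrays, 3 passed.

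Read against the elements in the promoters, 4 of the 10 genes that rose with E9 held an ERSE or ERSE-II in their window (Creld2, Dnajc3, Dnajb11 and Herpud1). Of the 18 measured genes with a window that did not pass, 5 did (Calr, Hsp90b1, Hspa5, Pdia6 and Syvn1). Both genes with ERSE-II, Dnajb11 and Herpud1, rose, and both genes with the UPR element core, Hspa5 and Sec24d, did not pass against DMSO. The Sec24d match, at chr3:123267470-123267476, lies at -26 to -20 from the start used for its window. That start is inside the gene, whose annotated first base is 123264801. Among ERSE genes the E9 fold changes ran from 0.078 for Pdia6 to 0.51 for Dnajc3, so carriers of the same element differed in size. These counts are a description of few genes and were not tested.

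Other genes of the pathway, from lists that name 111 further genes, are set beside the 35. These lists were written with earlier results of these data known, so their counts are descriptions only. With E9 against DMSO, 17 of their 101 measured genes rose (16.8%) and 4 fell, with a median of 0.053. Of all genes, 7.52% rose and 7.61% fell. The PERK, ATF4 and CHOP arm held the most calls: 7 of 11 rose (63.6%) and 0 fell. Ddit3, encoding the stress factor CHOP, had 252.9 and 242.6 with E9, 63.7 and 74.7 with epoxomicin and 80.2 and 78.2 with DMSO. E9 was above both other groups by a wide margin (1.38 ± 0.073 against DMSO, adjusted p = 2.66e-06). Trib3, a pseudokinase induced by CHOP (1.51 ± 0.092, adjusted p = 6.12e-06), Cebpb, a bZIP transcription factor (0.96 ± 0.063, adjusted p = 9.90e-06), and Ppp1r15a, which restores translation by dephosphorylating eIF2alpha (0.50 ± 0.069, adjusted p = 0.00101), rose too. These 4 passed in each alternative setting and in each fit without 1 array. Atf4 itself, named after its values were seen, showed overlapping groups: it had 3367.8 and 3141.3 with E9 and 3243.4 and 3259.2 with DMSO (0.00057 ± 0.071, adjusted p = 0.998).

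With epoxomicin 0 of these 11 rose and 2 fell, Chac1, a glutathione-degrading enzyme gene (-0.81 ± 0.066, adjusted p = 0.00162), and Trib3 (-0.69 ± 0.092, adjusted p = 0.00966). Without the second epoxomicin array neither passed, and Trib3 also failed when either DMSO array was left out and when its probes were averaged (-0.28, adjusted p = 0.0954). E9 against epoxomicin gave 9 of 11 higher (81.8%, against 6.62% of all genes) and 0 lower. Trib3 was at 2.20, Ddit3 at 1.53, Chac1 at 1.25 and Cebpb at 1.10. With its probes averaged Trib3 was at 1.16 against epoxomicin and at 0.88 against DMSO, and passed in both. Of the 90 measured genes in the other lists, 7 rose with E9 against epoxomicin (7.78%) and 2 fell (2.22%). Of all genes, 6.62% rose and 6% fell. The 7 were Prdx4 (0.52), Creb3 (0.42), Fkbp2 (0.38), Ero1b (0.36), Sec11c (0.34), Tram1 (0.30) and Ssr4 (0.29). The 2 were Sec61a2 (-0.41) and Sar1b (-0.33). Only Creb3 of these passed in every alternative setting and in every fit without 1 array.

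Against DMSO, 10 of the 90 measured genes in these other lists rose with E9 (11.1%) and 4 fell (4.44%). That is 15.6% in all, close to the 15.1% of all genes that changed. Further sensors had 2 of 7 higher, Creb3, a relative of ATF6 (0.46 ± 0.065, adjusted p = 0.00113), and Bloc1s1, whose mRNA IRE1 is known to cut (0.31 ± 0.072, adjusted p = 0.0174). Further ER-associated degradation had 2 of 15 higher, Aup1 (0.36) and Selenos (0.31), both partners of the ligase complexes. Further folding enzymes had 2 of 17 higher, the prolyl isomerase gene Fkbp2 (0.45) and the oxidase gene Ero1b (0.33), and 1 lower, the reductase gene Dnajc10 (-0.33). N-glycosylation had 1 of 14 higher, Alg5 (0.45). Further translocation factors had 2 of 20 higher, Tram1 (0.44) and Ssr4 (0.37), and 2 lower, Sec61a2 (-0.34) and Srp54a (-0.25). ER to Golgi transport had 1 of 17 higher, the cargo receptor gene Tmed10 (0.34), and 1 lower, the GTPase gene Sar1b (-0.26). With epoxomicin none of the genes in these lists passed, and Chac1 and Trib3 were the only ones of the 101 to do so.

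Creb3, Aup1, Alg5, Tram1, Ssr4 and Fkbp2 passed in every fit without 1 array, though Fkbp2 did not when its probes were averaged (0.23). Bloc1s1, Selenos, Ero1b, Tmed10, Sar1b and Srp54a failed when either DMSO array was left out and without 1 or more of the E9 arrays. Of these, Selenos, Sar1b and Srp54a also failed with an offset of 16, Sar1b and Srp54a with trend and robust settings, Sar1b without background correction and Srp54a with the replicate block. Sec61a2 failed without the second DMSO array. Dnajc10 failed without that array, the second E9 array or either epoxomicin array, with the replicate block, with the compared groups alone, with an offset of 16 and when its probes were averaged (-0.16, adjusted p = 0.12).

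**Figure D4:**
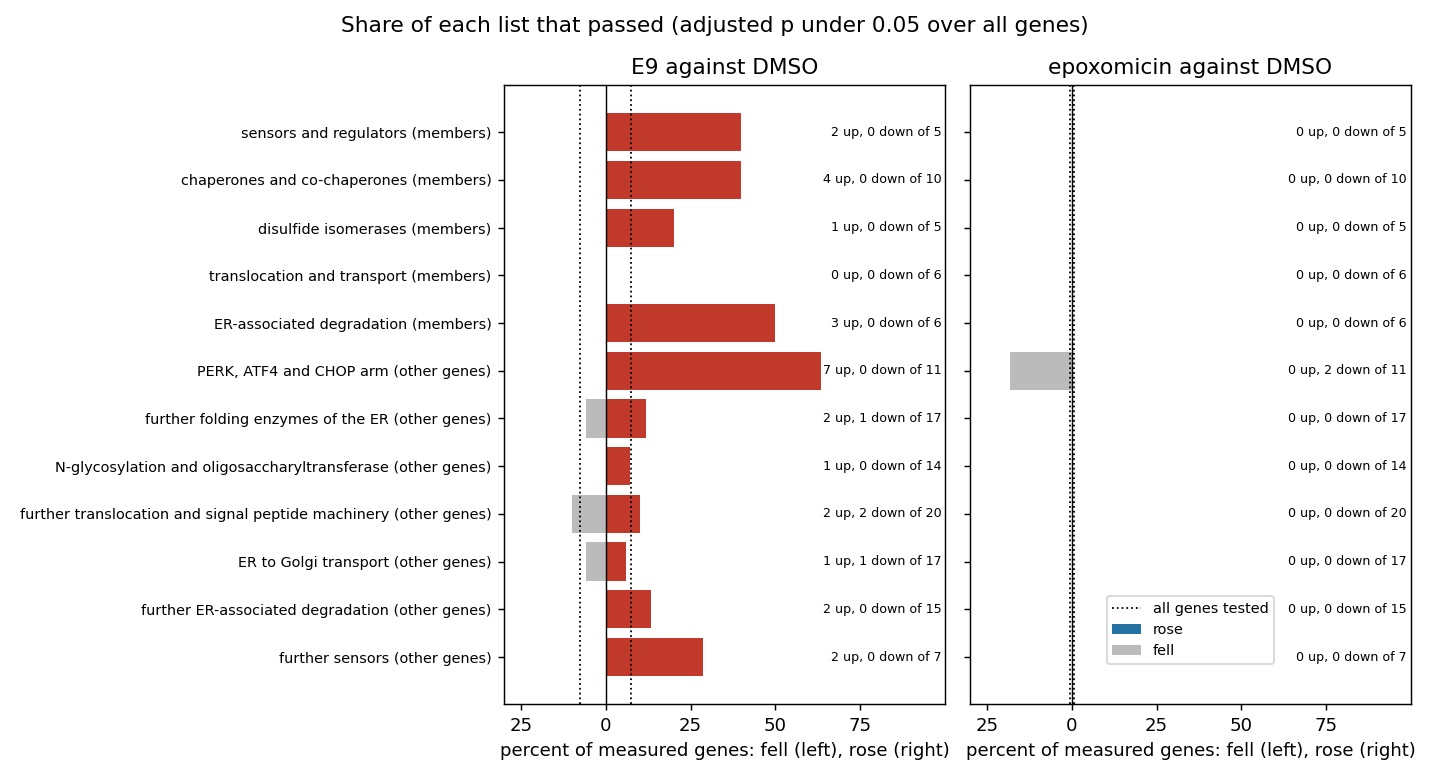
Percent of the measured genes of each list that rose (coloured, right of 0) or fell (grey, left of 0) against DMSO, with the counts at the right and the share over all genes as dotted lines (7.52% and 7.61% with E9). The top 5 lists are the 35 genes by role; with E9 the PERK, ATF4 and CHOP arm reaches 7 of 11, and with epoxomicin its 2 lower genes are the only ones of any list to pass.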

How the data were processed

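The deposited intensities are the authors' series table of 6 arrays (45281 probes), on a linear scale and already quantile-normalized, since the sorted values were identical on all 6 arrays; per the labels, total RNA was labelled for streptavidin-Cy3 detection. Any change in total RNA is therefore hidden. Scanner output and background treatment are not given in the sources used here. A second table holds 6 columns whose names match no label, and these were not used.

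A probe took its gene from the array annotation, with the symbol updated through RefSeq for 31257 of 35784 named probes. Of these, 20349 lay above the detection limit (34.6, from the mode of 30.7 and the spread below it) on at least 2 arrays, and for each of 13524 genes the brightest probe was tested. Intensities were corrected with normexp (offset 50, applied to the normalized values), set to log2 and fitted over all 3 groups with limma 3.58.1 in R 4.3.3 (residual degrees of freedom 3, prior 6.32). All 3 comparisons were tested two-sided with Benjamini-Hochberg adjustment at 0.05, and the script was tested on simulated data. E9 and epoxomicin are set against the same DMSO arrays. The 2 arrays per group limit the precision (median SE 0.072).

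The genes and lists were chosen with earlier results of these data known, so no p-value is given for a list. Named in full were all genes of the response that passed, Hspa5, Xbp1, Herpud1 and the sensor genes, and of each further list up to 4 that passed with the smallest p. Alternatives were a replicate block, the compared groups alone, no background correction, an offset of 16, no filter or a stricter one, the mean of probes, trend and robust settings, and leaving out each array. Promoters were read with Python 3.11.15 and pandas 2.3.3, and figures drawn with matplotlib 3.10.9.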

Additional observations from a re-analysis of the deposited data

How the results depend on the processing

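The count of ER stress genes that passed with E9 against DMSO ran from 7 (offset 16) to 11 over the 8 alternatives and from 5 to 10 on leaving out 1 array; with epoxomicin it was 0 in all, and with E9 against epoxomicin 2 to 5 on leaving out 1 array and 3 with the compared groups alone. Over the 8 alternatives the count for E9 against epoxomicin ran from 3 to 6, the 6 with the mean of probes. With the replicate block the 3 counts were 8 (E9 against DMSO), 0 (epoxomicin against DMSO) and 3 (E9 against epoxomicin). Over all genes they were 1760, 91 and 1413 in the same order. The replicate numbers are no known pairing: deviations of same-numbered arrays correlated at -0.317 (E9 and DMSO), 0.214 (epoxomicin and DMSO) and -0.203 (E9 and epoxomicin). Over all genes, leaving out 1 array gave 1228 to 1878 for E9 against DMSO, 1 to 238 for epoxomicin against DMSO, the 1 without the second epoxomicin array, and 938 to 1608 for E9 against epoxomicin. The median fold change with E9 against DMSO was 0.21 without background correction, 0.25 with an offset of 16 and 0.11 with the mean of probes, which gave 0.085 for E9 against epoxomicin and turned Mbtps1 to -0.031; a smaller offset enlarges dim genes' changes by construction. With epoxomicin the median was 0.038 to 0.064 on leaving out 1 array. Genes whose sign turned on leaving out 1 array, none of which passed with all 6, were for E9 against DMSO Calr (-0.0076 to 0.18), Derl2 (-0.019 to 0.20), Hspa5 (-0.15 to 0.47), Manf (-0.036 to 0.20), Sdf2l1 (-0.043 to 0.12), Sec61b (-0.059 to 0.019) and Spcs2 (-0.022 to 0.12). In the other comparisons single genes were refitted this way only for 14 of the 32, those that passed in any comparison with Hspa5, Atf6 and Eif2ak3, so further sign changes are not listed. Among these 14 they were, for epoxomicin against DMSO, Atf6 (-0.11 to 0.025), Eif2ak3 (-0.017 to 0.072), Hspa5 (-0.079 to 0.075), Sel1l (-0.087 to 0.017) and Xbp1 (-0.075 to 0.051), and for E9 against epoxomicin Eif2ak3 (-0.014 to 0.075) and Hspa5 (-0.15 to 0.47). The cause of these changes was not tested. Dim sensor probes, close to the detection limit, allow small changes only to be bounded.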
